A study of Mus musculus with 12 samples.

Results

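The S100 and annexin genes, small calcium-binding proteins and proteins that bind membranes when calcium rises, were followed across 4 groups of mouse brain cells. The members were every protein-coding gene whose symbol is S100a followed by a number, S100b, or Anxa followed by a number. This gave 25 genes, 14 S100 genes and 11 annexins, of the 55862 genes in the deposited table, of which 21926 were protein-coding. The symbols S100a7a, S100g, S100z and S100pbp do not match the rule, and Anxa13 is listed in the table as a long non-coding RNA and was left out with it.

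All 4 groups came from mice labelled C57BL/6, which the study's methods give as C57BL/6J for both NPC groups, with no transgene or deletion named, and each was sequenced as 3 samples. ASTs were primary astrocytes from the cerebral cortex of newborn pups, grown as a monolayer in medium with serum and taken at day 0 of sphere incubation. A-iSCs were ASTs left for 5 days to form spheres on an agarose surface that cells do not attach to. P56-NPCs were dissociated from the subependymal zone of the adult brain (postnatal day 56), and for P0-NPCs the hippocampus was dissociated at postnatal day 0. The NPC groups were whole tissue suspensions used as reference precursors, without a sort by a marker, and the number of animals behind each sample is not given in the sources used here. The labels do not say that samples with different numbers came from separate cultures or animals, so p-values measure the spread between these samples, which may be technical.

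S100 proteins are small EF-hand proteins that usually work as dimers. On binding calcium they open a surface that grips target proteins such as annexins, cytoskeletal proteins and, once released from the cell, receptors such as RAGE (gene Ager) and TLR4. Annexins carry repeats that bind acidic phospholipids when calcium rises, and they join membranes to each other and to the actin cortex, organise vesicle traffic and help to reseal torn membranes. In the brain, S100b is known as a marker of glia, while S100a6, S100a10, S100a11, Anxa1 and Anxa2 are known as genes of reactive and cultured astrocytes, fibroblasts and other cells with strong actin attachments. The families meet in heterotetramers, S100a10 with Anxa2 and S100a11 with Anxa1.

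Upstream sequences are shown for 3 members on which the results turn, S100a11 and Anxa2, which were highest in ASTs, and S100b, which was highest in P56-NPCs. The last sequence is the whole interval between the starts of S100a1 and S100a13, neighbours that lie head to head. All are from RefSeq and its mouse build GRCm38.p6, given on the plus strand from 5′ to 3′, and each of the first 3 ends before both the RefSeq start and the start in the deposited table. Capitals mark TGANTCA, the site that AP-1 factors bind.
S100a11, chr3:93520246-93520487, ending at the gene start: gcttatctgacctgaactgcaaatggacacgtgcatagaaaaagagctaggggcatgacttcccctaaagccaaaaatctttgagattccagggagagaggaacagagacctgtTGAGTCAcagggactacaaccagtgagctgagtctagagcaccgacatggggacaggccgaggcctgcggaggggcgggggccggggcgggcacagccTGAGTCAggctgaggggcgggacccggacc
Anxa2, chr9:69453433-69453619, ending at the gene start: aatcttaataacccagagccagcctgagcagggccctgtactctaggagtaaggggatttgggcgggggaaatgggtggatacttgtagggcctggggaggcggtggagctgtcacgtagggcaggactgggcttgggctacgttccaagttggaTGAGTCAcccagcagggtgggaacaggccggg
S100b, chr10:76253586-76253835, upstream of the gene: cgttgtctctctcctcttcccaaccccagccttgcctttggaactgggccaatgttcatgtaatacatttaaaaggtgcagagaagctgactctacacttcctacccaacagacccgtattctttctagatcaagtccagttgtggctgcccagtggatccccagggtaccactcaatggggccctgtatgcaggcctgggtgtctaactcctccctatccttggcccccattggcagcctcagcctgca
S100a1 to S100a13, chr3:90514393-90514434, the 42 bases between both gene starts: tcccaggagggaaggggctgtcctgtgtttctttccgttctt
The S100a11 sequence held 2 matches, with first bases 136 and 38 before the RefSeq start, and the Anxa2 sequence held 1, at 95. No match to TGANTCA was found in the S100b sequence or in the interval. Over windows of 300 bases, from 250 before to 50 after the RefSeq start and read on both strands, 20 of the 25 members could be matched by symbol, with 27 windows in all. TGANTCA was in 4 of these 27 windows (14.8%, those of S100a11, S100a16, Anxa2 and Anxa10), against 7.81% of all 32851 windows. The TEAD site GGAATG was in 2 of 27 (7.41%, Anxa1 and S100a3), against 14.7% of all windows, and a CArG box, the site of serum response factor, in 1 (3.70%, Anxa5), against 1.63%. The 3 motifs were chosen with expression results known, and a match describes letters in these windows and not binding.

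The 12 samples held 17077780 to 24452419 fragments, and a count of 3 fragments on a gene of 1 kb corresponded to 0.103 to 0.187 FPKM, the fragments of a gene divided by its length and by the size of the library. Floors of this kind cover counting error only. The labelled cell types were checked with lists of markers. Astrocyte markers (7 of 7 at or above 1 FPKM in every group) summed to 139.8 to 159 FPKM in ASTs, 1199 to 2454 in A-iSCs, 2368 to 2589 in P56-NPCs and 237 to 302 in P0-NPCs, so that ASTs had the lowest sums, though not the lowest level of every marker. Aqp4, Aldh1l1 and Gja1 were lower in P0-NPCs than in ASTs (limma, adjusted p under 0.05), and the other 4 were higher. Of all genes tested there, 40.9% were lower and 38.1% higher. Among the precursor markers, Sox2 averaged 107 ± 12.7 FPKM in P56-NPCs but Nes only 3.76 ± 0.246 (SD, n = 3), against 196 ± 13.4 in ASTs, while the 5 oligodendrocyte markers summed to 10245 to 11667 in P56-NPCs and to under 10 FPKM in each sample of the other groups. Mitochondrial genes took 16.5% to 17.6% of fragments in P56-NPCs and 2.94% to 7.03% in the other groups. In bulk samples such as these, fewer cells of a type and less RNA per cell cannot be told apart.

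Both families were most abundant in ASTs. The 14 S100 genes took 1.17% ± 0.240 (SD, n = 3) of the summed FPKM in ASTs, 0.320% ± 0.0660 in A-iSCs, 0.221% ± 0.0119 in P56-NPCs and 0.0494% ± 0.00413 in P0-NPCs. The 11 annexins took 0.377% ± 0.0374, 0.122% ± 0.00992, 0.0346% ± 0.00185 and 0.0371% ± 0.000668 in the same order. In neither family did the shares of one group lie within the range of another group. The summed FPKM of all genes was 475056 to 502486 in P56-NPCs and 245937 to 388492 in the other samples, so the order below ASTs depended on this denominator. The summed FPKM of the S100 genes was 996 ± 285 in A-iSCs and 1081 ± 53.7 in P56-NPCs, which overlapped, and that of the annexins was 169 ± 6.59 in P56-NPCs, above 95.8 ± 5.41 in P0-NPCs, the reverse of the order of the shares. ASTs were highest on both scales. Of the 25 members, 13 had their highest group mean in ASTs (5 S100 genes and 8 annexins), 3 in A-iSCs, 7 in P56-NPCs (6 S100 genes and Anxa10) and 2 in P0-NPCs. The 14 members, 7 of each family, that reached a group mean of 10 FPKM in at least 1 group are given sample by sample, in the order of replicates 1, 2 and 3. The other 11 are given by their ranges, and 4 of them stayed under a group mean of 1 FPKM in every group and entered no test.

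**Figure D1:**
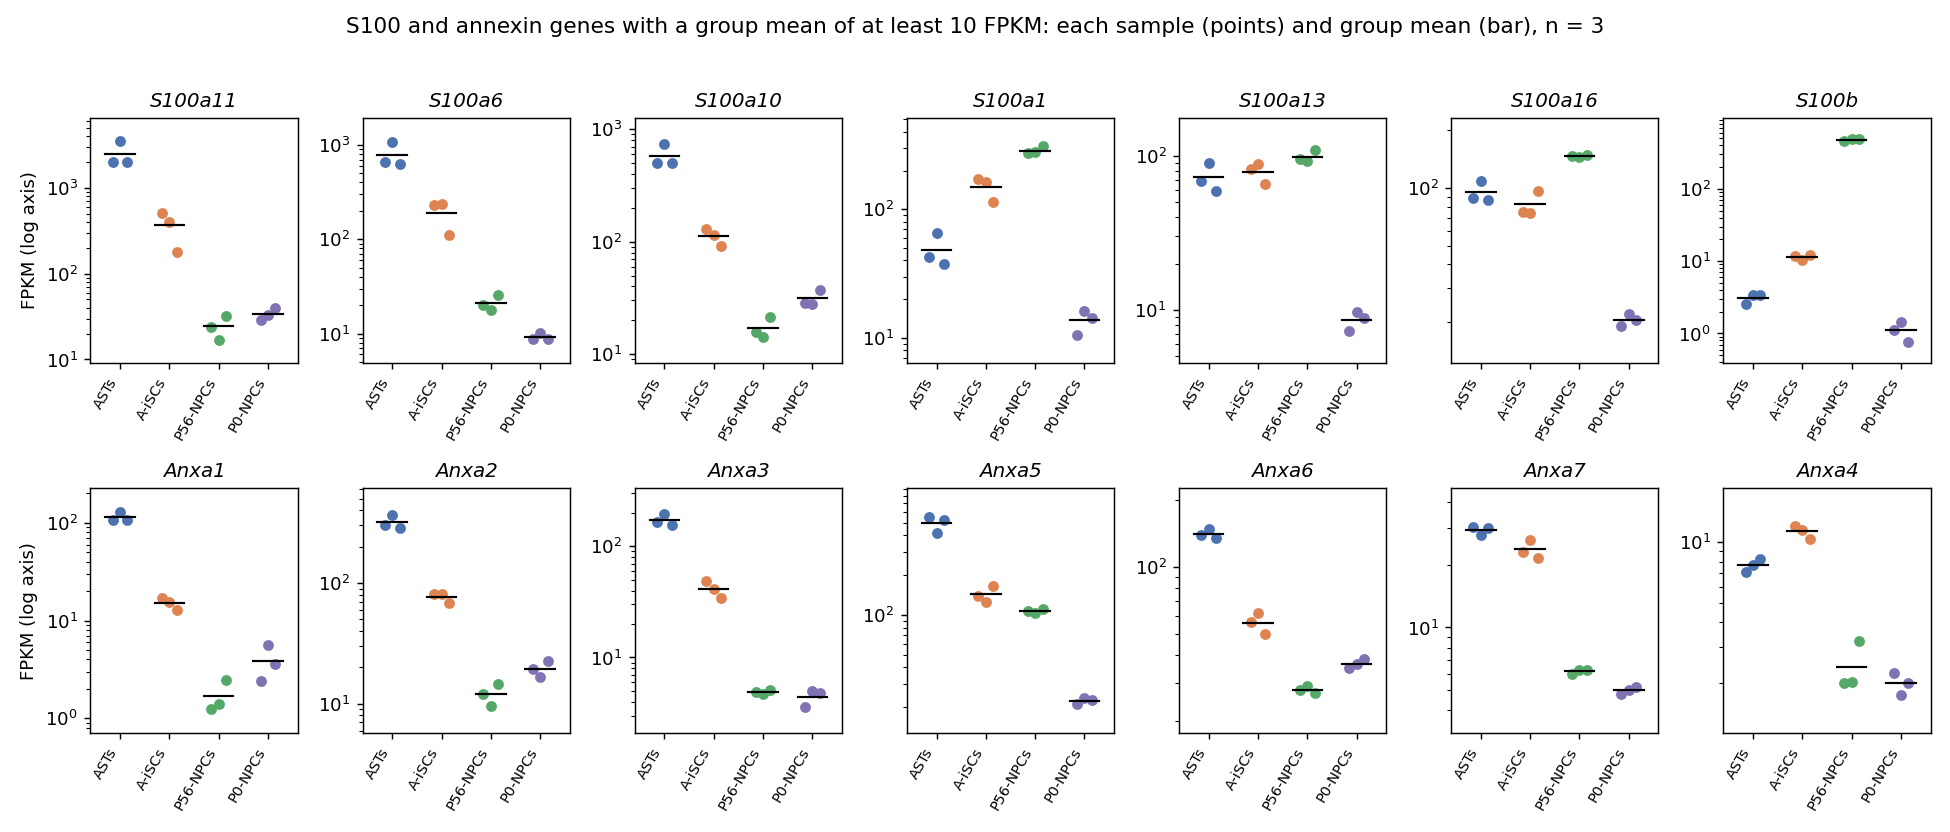
Expression of the 14 members with a group mean of at least 10 FPKM, 1 panel per gene, with the 4 groups on the x axis and FPKM on a log y axis that differs between panels. Points are samples and bars are means of 3. S100a11, S100a6, S100a10, Anxa1, Anxa2, Anxa3, Anxa5 and Anxa6 stand highest in ASTs with A-iSCs next, while S100b, S100a1 and S100a16 stand highest in P56-NPCs.

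S100a11, which binds Anxa1 and other annexins at membranes and is known for its part in membrane repair, reached the highest level of any member, in ASTs. It measured 1982, 3525 and 1993 FPKM in ASTs, 513, 401 and 181 in A-iSCs, 23.9, 16.7 and 32.1 in P56-NPCs and 29.2, 32.6 and 40.0 in P0-NPCs. Every AST sample lay above every A-iSC sample and every A-iSC sample above both NPC groups, which overlapped. By mean FPKM it was the 8th highest of the 21926 protein-coding genes in ASTs, the 72nd in A-iSCs, the 2002nd in P56-NPCs and the 1123rd in P0-NPCs. The mean in ASTs was 6.85 times that in A-iSCs, and the log2 fold change of A-iSCs over ASTs on log2(FPKM + 1) was -2.85 ± 0.42 (SE, limma adjusted p = 0.00114). Against ASTs, the log2 fold change was -6.62 in P56-NPCs and -6.12 in P0-NPCs (limma, adjusted p = 1.09e-06 and 2.87e-07). P56-NPCs and P0-NPCs did not differ beyond their spread in the main test (-0.50 ± 0.22, adjusted p = 0.0677), whereas without P56-NPCs replicate 3 the difference was -0.72 with an adjusted p of 0.00826, with scaling by total fragments -1.11 with an adjusted p of 0.00178, and with limma-voom on recovered fragments it was -0.53 with an adjusted p of 0.0382.

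S100a6, also called calcyclin, a partner of the calcyclin-binding protein Cacybp that is known from growing cells, measured 657, 1077 and 635 FPKM in ASTs, 229, 235 and 111 in A-iSCs, 20.1, 17.8 and 25.4 in P56-NPCs and 8.70, 10.1 and 8.84 in P0-NPCs. The 4 groups did not overlap and followed the order ASTs, A-iSCs, P56-NPCs, P0-NPCs. All 6 comparisons passed the test, with a log2 fold change of -2.07 ± 0.35 (SE, limma adjusted p = 0.00201) for A-iSCs over ASTs and 1.10 ± 0.13 (SE, limma adjusted p = 1.04e-04) for P56-NPCs over P0-NPCs, the last of which was 0.51 with scaling by total fragments. The mean in ASTs was 85.8 times that in P0-NPCs, where S100a6 was the 4576th highest protein-coding gene by mean FPKM against the 31st in ASTs.

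S100a10, also called p11, has lost the ability to bind calcium and is known as the light chain of the Anxa2 complex. It measured 503, 737 and 503 FPKM in ASTs, 129, 116 and 91.5 in A-iSCs, 15.6, 14.2 and 21.3 in P56-NPCs and 28.7, 27.6 and 37.4 in P0-NPCs. Here too no group overlapped another, but P0-NPCs stood above P56-NPCs. A-iSCs differed from ASTs by a log2 fold change of -2.36 ± 0.21 (SE, limma adjusted p = 1.03e-04), and P56-NPCs from P0-NPCs by -0.84 ± 0.17 (SE, limma adjusted p = 0.00207), the last of which was -1.44 with scaling by total fragments. All 6 comparisons of S100a10 passed the test.

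Within groups, the samples of S100a11, S100a6 and S100a10 were not alike. AST replicate 2 held 1.77 times the mean of AST replicates 1 and 3 for S100a11, 1.67 times for S100a6 and 1.46 times for S100a10, while A-iSC replicate 3 held 0.396, 0.477 and 0.749 times the mean of A-iSC replicates 1 and 2. Anxa5 moved the other way in the same samples, at 0.779 times in AST replicate 2 and 1.26 times in A-iSC replicate 3. Without AST replicate 2 the log2 fold change of A-iSCs over ASTs was -2.57 for S100a11, and without A-iSC replicate 3 it was -2.41, both still lower in A-iSCs with adjusted p = 0.00543 and 0.00112 (limma). These samples were kept in all main values.

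S100a4, a protein that binds the tail of non-muscle myosin Myh9 and is known from moving fibroblasts, was scarcer and was also highest in ASTs, followed by A-iSCs. Its FPKM ranged from 7.56 to 10.2 in ASTs, from 2.95 to 4.42 in A-iSCs, from 0.213 to 0.520 in P56-NPCs and from 0 to 0.176 in P0-NPCs, where it rested on 0, 3 and 0 fragments. S100a4 was lower in A-iSCs than in ASTs, with a log2 fold change of -1.10 ± 0.17 (SE, limma adjusted p = 0.00134). It shares 302 of its 584 exonic bases (51.7%) with Gm42674, an annotated protein-coding gene on the same strand, so its level is uncertain wherever the counting could split or drop shared fragments.

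Of the 5 fibroblast and meningeal markers, only Col1a1 was also highest in ASTs. Col1a2, Col3a1, Dcn and Lum had their highest means in P0-NPCs. In P0-NPCs over ASTs these 4 were called higher and Col1a1 lower (limma, adjusted p under 0.05). The log2 fold changes were 0.83 for Col1a2 and 3.41 for Col3a1. Of all genes tested there, 38.1% were higher and 40.9% lower. Dcn and Lum entered through P0-NPCs alone, so the direction of their means was fixed in advance. The 5 markers summed to 147 to 198 FPKM in ASTs, 4.67 to 5.73 in A-iSCs, 4.33 to 10.47 in P56-NPCs and 109 to 122 in P0-NPCs. In ASTs most of the sum was Col1a1 (158 ± 24.2 FPKM), and Dcn (0.248 ± 0.0338) and Lum (0.0374 ± 0.0454) were near 0, with 3 of 5 markers at or above 1 FPKM. In P0-NPCs all 5 were at or above 1 FPKM, with Dcn at 11.96 ± 0.897. The part of these cells in the AST values was not tested.

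S100b, known from astrocytes and maturing oligodendrocytes and, outside the cell, as a ligand of RAGE, showed the widest span of the described members. It measured 2.57, 3.36 and 3.41 FPKM in ASTs, 11.97, 10.3 and 12.04 in A-iSCs, 466, 482 and 490.4 in P56-NPCs and 1.12, 1.46 and 0.758 in P0-NPCs. P56-NPCs stood far above every other sample, and the order P56-NPCs, A-iSCs, ASTs, P0-NPCs held with no overlap between groups. S100b was the 64th highest protein-coding gene by mean FPKM in P56-NPCs, and the 3884th, 8480th and 11656th in A-iSCs, ASTs and P0-NPCs. The mean in P56-NPCs was 431 times that in P0-NPCs (log2 fold change 7.84 ± 0.12 (SE, limma adjusted p = 6.85e-09)) and 154 times that in ASTs. A-iSCs rose over ASTs by a log2 fold change of 1.60 ± 0.13 (SE, limma adjusted p = 5.73e-05), and A-iSCs over P56-NPCs was -5.28 ± 0.10 (SE, limma adjusted p = 1.17e-07).

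S100a1, known for calcium handling in muscle and also made by glia and neurons, had the same order of groups as S100b with a smaller span. Its samples measured 42.7, 65.2 and 37.6 FPKM in ASTs, 173, 164 and 113 in A-iSCs, 272, 277 and 309 in P56-NPCs and 10.6, 16.3 and 14.3 in P0-NPCs. No group overlapped another. A-iSCs were 3.10 times ASTs in mean FPKM, a log2 fold change of 1.63 ± 0.25 (SE, limma adjusted p = 0.00132), and P56-NPCs were above A-iSCs (A-iSCs over P56-NPCs -0.95 ± 0.18 (SE, limma adjusted p = 0.00307)). The last difference was -0.39 with an adjusted p of 0.0822 when samples were scaled by total fragments. AST replicate 2 held 1.62 times the mean of the other AST samples and A-iSC replicate 3 held 0.671 times that of the other A-iSC samples.

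S100a16, a widely expressed member of the family, measured 89.1, 109 and 86.6 FPKM in ASTs, 75.4, 74.3 and 96.7 in A-iSCs, 148, 145 and 149 in P56-NPCs and 19.0, 22.0 and 20.5 in P0-NPCs. P56-NPCs were highest and P0-NPCs lowest in every sample, and ASTs and A-iSCs overlapped. A-iSCs and ASTs did not pass the test (-0.21 ± 0.16 (SE, limma adjusted p = 0.304)), and the sign of this value turned when samples were scaled by total fragments (0.0041). P56-NPCs stood above ASTs by 0.64 ± 0.11 (SE, limma adjusted p = 0.00102), or 0.30 with scaling by total fragments, and above P0-NPCs by 2.79 ± 0.07 (SE, limma adjusted p = 6.27e-08), and A-iSCs lay below P56-NPCs (-0.85 ± 0.13 (SE, limma adjusted p = 0.00107)), the last with an adjusted p of 0.0791 under scaling by total fragments.

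S100a13, which takes part in the release of FGF1 and IL-1α by cells, measured 68.6, 90.0 and 59.5 FPKM in ASTs, 81.9, 88.7 and 65.6 in A-iSCs, 94.7, 92.0 and 109 in P56-NPCs and 7.28, 9.70 and 8.89 in P0-NPCs. ASTs and A-iSCs overlapped, P56-NPCs lay just above both, and P0-NPCs lay far below all other samples. A-iSCs over P0-NPCs gave a log2 fold change of 3.05 ± 0.15 (SE, limma adjusted p = 2.46e-06), and neither A-iSCs over ASTs (0.12 ± 0.19, adjusted p = 0.613) nor A-iSCs over P56-NPCs (-0.33 ± 0.14, adjusted p = 0.0833) passed the test. P56-NPCs over ASTs (0.45 ± 0.16 (SE, limma adjusted p = 0.0328)) passed narrowly and did not when any of 5 of the 6 samples was left out (adjusted p 0.0590 to 0.105), without the filter on low values (0.0632), with upper-quartile scaling (0.129) or with scaling by total fragments, where the value was 0.11 (adjusted p = 0.493).

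Markers of oligodendrocytes moved with S100b, S100a1 and S100a16 in P56-NPCs. All 5 were at or above 1 FPKM there, with Mbp at 5271 ± 347 FPKM, and their sum was 0.668 to 0.864 in ASTs (Mobp at 0 in all 3), 8.36 to 9.07 in A-iSCs and 5.76 to 6.98 in P0-NPCs. The sum of the astrocyte markers, given above, was highest in P56-NPCs in its mean but overlapped that of A-iSCs, where Gfap (970.0 ± 448 FPKM, against 211 ± 15.4 in P56-NPCs), Aqp4 and Aldh1l1 were highest. In A-iSCs over P56-NPCs, Gfap and Aldh1l1 were called higher, Aqp4 was not called, and Slc1a2, Aldoc, Slc1a3 and Gja1 were called lower. Ependymal markers summed to 267 to 368 FPKM there (5 of 5 at or above 1 FPKM), 50.4 to 63.6 in ASTs, 74.5 to 87.1 in A-iSCs and 90.9 to 117 in P0-NPCs. In A-iSCs, where S100b and S100a1 exceeded their AST levels, the oligodendrocyte sum stayed under 10 FPKM and S100a1 averaged 150.3 ± 32.4 FPKM. The part of these cell types in the S100b, S100a1 and S100a16 values was not tested.

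S100a8 and S100a9, which pair as calprotectin in neutrophils and other myeloid cells, were detected mainly in the suspensions taken directly from brain. S100a9 had 0 fragments in all 3 AST and all 3 A-iSC samples, measured 3.31, 5.13 and 3.49 FPKM in P56-NPCs and 3.85, 3.75 and 9.25 in P0-NPCs. At 3 fragments per library as the floor, the mean of P56-NPCs was at least 12.8-fold higher than ASTs and 16.1-fold higher than A-iSCs, and that of P0-NPCs at least 18.01-fold and 22.7-fold higher. S100a8 measured 2.57, 2.51 and 1.49 FPKM in P56-NPCs and 2.08, 3.22 and 6.02 in P0-NPCs, against 0 to 0.568 in ASTs and 0.214 to 0.364 in A-iSCs, which rested on at most 8 fragments. Both genes passed the test in P56-NPCs over ASTs (S100a8 1.33, adjusted p = 7.14e-04) and in P0-NPCs over ASTs (S100a8 1.84, adjusted p = 5.98e-04), and the NPC groups overlapped and did not pass against each other in the main test. With scaling by total fragments, P56-NPCs over P0-NPCs passed for S100a8 (-0.95, adjusted p = 0.0129) and S100a9 (-0.84, adjusted p = 0.0245), and for S100a8 it also passed without P0-NPCs replicate 1 (-0.79, adjusted p = 0.0283). With a pseudocount of 0.1 the S100a8 values were 2.95 and 3.62, since log2(FPKM + 1) understates the change of a gene at such levels. Both genes entered these comparisons through the NPC groups alone, and P0-NPCs replicate 3 was the highest sample for both.

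Neutrophil markers were also detected mainly in the NPC groups, at low levels. The 6 markers summed to 0.0156 to 0.130 FPKM in ASTs, 0 to 0.203 in A-iSCs, 1.11 to 2.46 in P56-NPCs and 0.694 to 5.06 in P0-NPCs, with Ngp, Ly6g and Elane at 0 in every AST and A-iSC sample. Only Ngp and Camp reached a group mean of 1 FPKM, both in P0-NPCs. Both were called higher in P0-NPCs over ASTs, which they entered through P0-NPCs alone, beside 38.1% of all genes tested. The other 4 did not enter that comparison, and all 6 were untested in P56-NPCs over ASTs. Red cell markers, which come with blood, summed to 360.0 to 565 in P56-NPCs and 163 to 338 in P0-NPCs and were under 1 FPKM in each AST and A-iSC sample. The part of blood cells in S100a8 and S100a9 was not tested. Microglia markers (4 of 5 at or above 1 FPKM in ASTs, 5 of 5 in the other groups) summed to 193 to 246 in A-iSCs, 231 to 240.0 in P56-NPCs, 20.1 to 23.8 in ASTs and 23.0 to 31.2 in P0-NPCs. The part of microglia in S100a8 and S100a9 was not tested either.

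The remaining S100 genes were scarce. S100a3 ranged from 0.746 to 1.24 FPKM in ASTs, from 1.45 to 1.82 in A-iSCs, from 0.140 to 0.302 in P56-NPCs and from 0 to 0.0643 in P0-NPCs. The A-iSC samples of S100a3 lay above every other sample, but A-iSCs over ASTs narrowly missed the threshold (0.37 ± 0.13 (SE, limma adjusted p = 0.0512)). It passed without AST replicate 2 (adjusted p = 0.0381), without A-iSC replicate 3 (0.0440), with all 4 groups in the fit (0.0122) and with scaling by total fragments (0.0152). S100a14, S100a2 and S100a5 entered no test, with group means of at most 0.523, 0.186 and 0.197 FPKM. S100a14 and S100a2 were highest in P56-NPCs replicate 3 (1.27 and 0.359 FPKM), and S100a5 had fragments in AST replicates 2 and 3 alone, 3 and 2 of them.

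Anxa1, Anxa2, Anxa3, Anxa5 and Anxa6 were highest in ASTs with A-iSCs second, as were S100a11, S100a6 and S100a10. Anxa5, which binds exposed phosphatidylserine and is used as a stain for dying cells, measured 551, 419 and 525 FPKM in ASTs, 139, 126 and 167 in A-iSCs, 108, 104 and 110.4 in P56-NPCs and 21.0, 23.5 and 22.9 in P0-NPCs. Its groups did not overlap, in the order ASTs, A-iSCs, P56-NPCs, P0-NPCs. Anxa5 was the most abundant annexin in every group but P0-NPCs, where Anxa6 was higher. A-iSCs over ASTs gave a log2 fold change of -1.78 ± 0.18 (SE, limma adjusted p = 1.66e-04) and P56-NPCs over P0-NPCs 2.21 ± 0.06 (SE, limma adjusted p = 1.21e-07). A-iSCs over P56-NPCs was small (0.41 ± 0.13 (SE, limma adjusted p = 0.0273)) and did not pass when any 1 of the P56-NPC samples was left out (adjusted p 0.0682 to 0.0924), while with scaling by total fragments it was 0.96.

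Anxa2, the heavy partner of S100a10 that ties membranes to actin and binds plasminogen activators at the cell surface, measured 303, 363 and 287 FPKM in ASTs, 80.8, 81.3 and 68.2 in A-iSCs, 11.97, 9.62 and 14.4 in P56-NPCs and 19.3, 16.7 and 22.7 in P0-NPCs. As for S100a10, no group overlapped another and P0-NPCs stood above P56-NPCs. The log2 fold change of A-iSCs over ASTs was -2.03 ± 0.15 (SE, limma adjusted p = 4.27e-05), and that of P56-NPCs over P0-NPCs was -0.67 ± 0.15 (SE, limma adjusted p = 0.00484), or -1.25 with scaling by total fragments. In mean FPKM, ASTs held 4.14 times the level of A-iSCs and 26.5 times that of P56-NPCs.

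Anxa1, a glucocorticoid-induced annexin whose N-terminal peptide acts on formyl peptide receptors, measured 106, 128 and 107 FPKM in ASTs, 17.0, 15.4 and 12.9 in A-iSCs, 1.25, 1.41 and 2.46 in P56-NPCs and 2.43, 5.58 and 3.59 in P0-NPCs. ASTs lay above A-iSCs and A-iSCs above both NPC groups, which overlapped by a single P56-NPC sample. The mean of ASTs was 7.53 times that of A-iSCs (log2 fold change -2.84 ± 0.15 (SE, limma adjusted p = 9.60e-06)). P56-NPCs lay below P0-NPCs in the test (-0.82 ± 0.25 (SE, limma adjusted p = 0.0184)), a call that was lost without P56-NPCs replicate 1 (adjusted p = 0.0628) or 2 (0.0586) and without the filter on low values (0.0541), and a value that was -1.24 with scaling by total fragments.

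Anxa3, an annexin known from microglia and from growing endothelium, measured 167, 195 and 156 FPKM in ASTs, 48.7, 41.2 and 34.0 in A-iSCs, 4.85, 4.72 and 5.12 in P56-NPCs and 3.58, 5.00 and 4.76 in P0-NPCs. The NPC groups overlapped at about 5 FPKM and did not pass against each other (0.12 ± 0.11 (SE, limma adjusted p = 0.321)), but with scaling by total fragments P56-NPCs passed as lower (-0.39, adjusted p = 0.00907). A-iSCs lay between them and ASTs, at a log2 fold change of -2.05 ± 0.17 (SE, limma adjusted p = 6.58e-05) from ASTs and 2.83 ± 0.14 (SE, limma adjusted p = 4.52e-06) from P56-NPCs. The sums of microglia markers, given above, were highest in A-iSCs and P56-NPCs, and their part in the Anxa3 values was not tested.

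Anxa6, the largest annexin, with a doubled core that can bridge membranes, measured 139, 149 and 135 FPKM in ASTs, 56.2, 61.8 and 49.8 in A-iSCs, 27.7, 29.0 and 27.0 in P56-NPCs and 35.0, 36.4 and 38.2 in P0-NPCs. No group overlapped another, and the order was ASTs, A-iSCs, P0-NPCs, P56-NPCs. The span was narrower than for the other 4, with ASTs at 5.06 times P56-NPCs in mean FPKM. Log2 fold changes were -1.32 ± 0.13 (SE, limma adjusted p = 1.55e-04) for A-iSCs over ASTs and 0.60 ± 0.12 (SE, limma adjusted p = 0.00290) for A-iSCs over P0-NPCs.

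Anxa7, also called synexin and known for its binding of secretory granules, was not called between ASTs and A-iSCs. It measured 30.3, 27.7 and 29.9 FPKM in ASTs, 23.1, 26.3 and 21.6 in A-iSCs, 5.97, 6.25 and 6.28 in P56-NPCs and 4.79, 4.99 and 5.20 in P0-NPCs. Each AST sample was above each A-iSC sample, but the difference did not pass the test (-0.30 ± 0.12 (SE, limma adjusted p = 0.0648)), although it did with all 4 groups in the fit (adjusted p = 0.00931) and with upper-quartile scaling (0.0173). Both stood well above the NPC groups, with A-iSCs over P56-NPCs at 1.78 ± 0.10 (SE, limma adjusted p = 9.03e-06). P56-NPCs over P0-NPCs was 0.26 ± 0.06 (SE, limma adjusted p = 0.00592) and turned to -0.27 (adjusted p = 0.00335) with scaling by total fragments.

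Anxa4, an annexin of secretory epithelia, was called higher in A-iSCs relative to ASTs, alone among the annexins in the main test and joined by Anxa9 with all 4 groups in the fit, with scaling by total fragments or without A-iSCs replicate 3. It measured 7.11, 7.69 and 8.22 FPKM in ASTs, 12.04, 11.5 and 10.4 in A-iSCs, 1.98, 2.01 and 3.22 in P56-NPCs and 2.23, 1.73 and 1.99 in P0-NPCs. A-iSCs lay above ASTs and ASTs above the NPC groups, which overlapped each other. The log2 fold change of A-iSCs over ASTs was 0.51 ± 0.11 (SE, limma adjusted p = 0.00647), smaller in size than that of any annexin called lower, and A-iSCs over P56-NPCs was 1.87 ± 0.15 (SE, limma adjusted p = 4.94e-05).

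The other annexins were scarce. Anxa8 ranged from 6.76 to 7.53 FPKM in ASTs, from 0.476 to 1.10 in A-iSCs, from 2.25 to 2.94 in P56-NPCs and from 0.270 to 0.457 in P0-NPCs, so that P56-NPCs, and not A-iSCs, came second. A-iSCs over P56-NPCs for Anxa8 was -1.003 ± 0.15 (SE, limma adjusted p = 0.00114), or -1.64 with a pseudocount of 0.1, and Anxa8 entered that comparison through P56-NPCs alone. Anxa11, which binds the calcium sensor Pdcd6 and travels with RNA granules in axons, ranged from 3.52 to 6.47 FPKM in ASTs, from 2.19 to 2.27 in A-iSCs, from 3.06 to 3.30 in P56-NPCs and from 0.706 to 1.04 in P0-NPCs, with the same order as Anxa8. P56-NPCs over ASTs for Anxa11 (-0.50 ± 0.17 (SE, limma adjusted p = 0.0320)) did not pass when any of 5 of the 6 samples was left out (adjusted p 0.0675 to 0.0896). Anxa11 in A-iSCs over P56-NPCs (-0.37 ± 0.09 (SE, limma adjusted p = 0.00768)) turned to 0.03 with scaling by total fragments.

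Anxa9 measured 1.91, 2.03 and 0.702 FPKM in A-iSCs and between 0.361 and 0.857 in every sample of the other groups. A-iSCs replicate 3 lay inside the range of the other groups. Anxa9 entered its comparisons through A-iSCs alone. Without A-iSCs replicate 3, A-iSCs over ASTs was 0.85 with an adjusted p of 0.00334, against 0.59 ± 0.24 (SE, limma adjusted p = 0.0772) with it. A-iSCs over P56-NPCs was called (0.69 ± 0.25 (SE, limma adjusted p = 0.0441)) but was lost without the filter, with limma-voom and without any of 4 of the 6 samples. Anxa10 entered no test, with at most 5 fragments in any sample.

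Because S100a10 and Anxa2 form a complex, their relative level was taken in each sample. The ratio of S100a10 to Anxa2 FPKM was 1.66, 2.03 and 1.75 in ASTs, 1.59, 1.42 and 1.34 in A-iSCs, 1.303, 1.48 and 1.48 in P56-NPCs and 1.48, 1.65 and 1.65 in P0-NPCs. All 12 ratios lay between 1.303 and 2.03, while Anxa2 itself ranged from 9.62 to 363 FPKM over the same samples. ASTs had the 3 highest ratios, and the ranges of A-iSCs and P56-NPCs overlapped. The mean log2 ratio of A-iSCs minus ASTs was -0.32 (exact two-sided permutation test, p = 0.1, adjusted p = 0.15 over 6 comparisons), and 0.1 is the smallest p that 3 samples against 3 allow. P56-NPCs minus ASTs was -0.35, P0-NPCs minus ASTs -0.18 and P56-NPCs minus P0-NPCs -0.17, each with the same exact p. A-iSCs minus P56-NPCs was 0.03 (exact p = 0.9) and A-iSCs minus P0-NPCs -0.14 (exact p = 0.2).

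**Figure D2:**
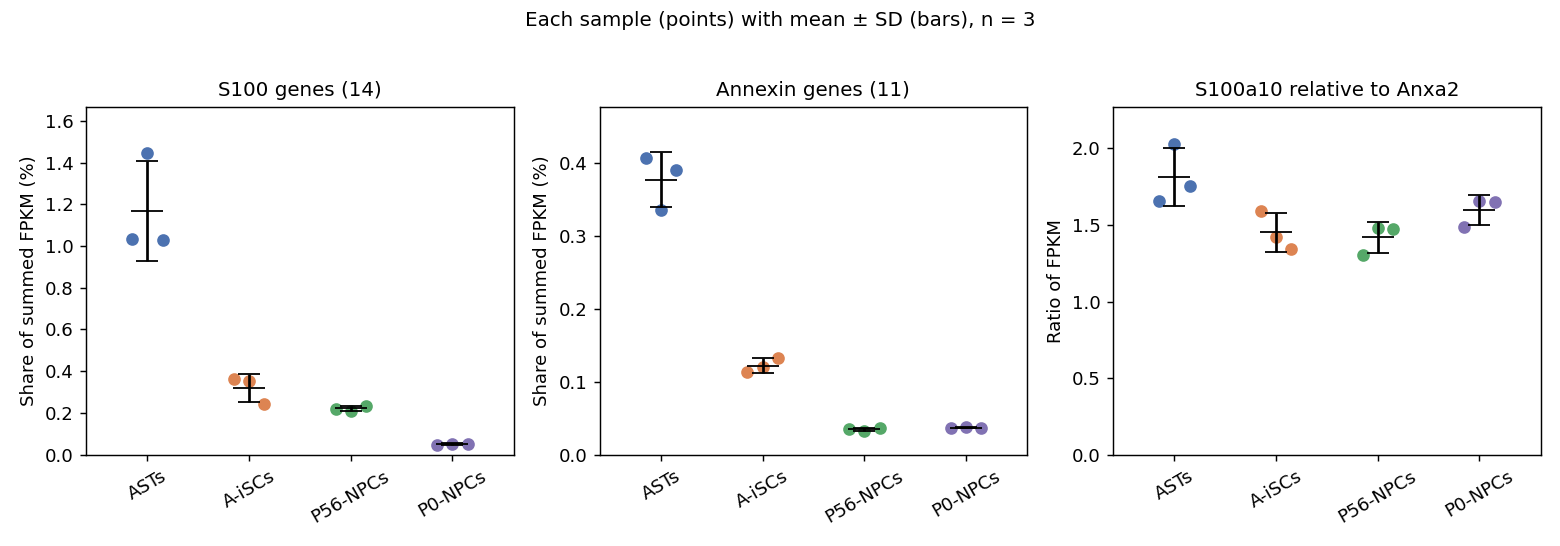
Share of the summed FPKM taken by the 14 S100 genes (left) and the 11 annexins (middle), in percent, and the ratio of S100a10 to Anxa2 FPKM (right), for the 4 groups on the x axis. Points are samples, and horizontal bars with error bars are means ± SD of 3. Both shares are highest in ASTs, at 1.17% and 0.377%, while the ratio stays between 1.303 and 2.03 in all samples.

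Counted over the comparisons, members fell from ASTs to A-iSCs more often than they rose. A gene entered a comparison when its mean was at least 1 FPKM in at least 1 of the 2 groups. For a member that entered through 1 group alone, the direction of the means was thus fixed in advance, though a call was not. The counts describe the members that entered and not all 25. For A-iSCs over ASTs, 3 members were higher (S100a1, S100b and Anxa4), 11 lower (4 S100 genes and 7 annexins), 5 were not called and 6 did not enter. Of the 14087 genes tested in that comparison, 25.2% were called higher and 29.6% lower, 54.8% in all. Among the 11 lower members were S100a11, S100a6, S100a10 and S100a4, and Anxa1, Anxa2, Anxa3, Anxa5, Anxa6, Anxa8 and Anxa11. The median log2 fold change of the 19 members that entered was -1.10, with -0.21 for the S100 genes and -1.55 for the annexins, against -0.06 for all genes tested.

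Both NPC groups stood further from ASTs. In P56-NPCs over ASTs, all 20 members that entered were called, 6 higher (S100a1, S100a8, S100a9, S100a13, S100a16 and S100b) and 14 lower, beside 39.1% higher and 39.8% lower (78.9% in all) of the genes tested. All 9 annexins that entered were lower. In P0-NPCs over ASTs, the 2 higher members were S100a8 and S100a9 and 18 were lower, beside 38.1% and 40.9% (79% in all) of the genes tested. The median log2 fold changes of the members were -1.72 and -2.46, against -0.03 and -0.07 for all genes. By family, the medians in P56-NPCs over ASTs were 0.45 for the S100 genes and -2.19 for the annexins. In P0-NPCs over ASTs they were -2.15 and -2.58. These comparisons share the AST samples with the first one.

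Set against the NPC groups, A-iSCs had higher levels of most annexins. A-iSCs over P56-NPCs gave 13 members higher (5 S100 genes and 8 annexins), 7 lower and 1 not called, beside 30.1% higher and 30.9% lower (61% in all) of the genes tested. The 7 lower members were S100b, S100a1, S100a16, S100a8, S100a9, Anxa8 and Anxa11. A-iSCs over P0-NPCs gave 17 higher, 2 lower (S100a8 and S100a9) and 1 not called (Anxa9), beside 31.5% and 33.6% (65.1% in all). Between the NPC groups, P56-NPCs over P0-NPCs gave 9 higher, 4 lower (S100a10, Anxa1, Anxa2 and Anxa6) and 5 not called, beside 39.7% and 39% (78.8% in all) of the genes tested. The 9 members called in all 6 comparisons were S100a6, S100a10, S100a1, S100b, Anxa1, Anxa2, Anxa5, Anxa6 and Anxa11, of 15 members that entered all 6, beside 13.8% of the 12213 genes tested in all 6. The 6 comparisons share their samples.

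Scaling by total fragments, in place of the scaling already in the values, moved the median of all genes from -0.06 to 0.13 for A-iSCs over ASTs, from -0.03 to -0.34 for P56-NPCs over ASTs, from -0.07 to 0.21 for P0-NPCs over ASTs, from 0.03 to 0.49 for A-iSCs over P56-NPCs and from 0.01 to -0.53 for P56-NPCs over P0-NPCs. The shares of all genes called higher and lower became 31.9% and 20.9%, 31.2% and 51.6%, 46.3% and 31.6%, 55.9% and 19.2%, and 22.3% and 61.2% in the same order. Upper-quartile scaling moved the median to -0.17 for A-iSCs over ASTs and to -0.17 for P56-NPCs over ASTs. With scaling by total fragments, 5 members were higher in A-iSCs over ASTs, adding S100a3 and Anxa9 to S100a1, S100b and Anxa4, while the 11 lower members of the main test lost no call. S100a11, S100a6, S100a10, Anxa1, Anxa2, Anxa3, Anxa5 and Anxa6 were called lower in A-iSCs than in ASTs under all 3 scalings, by more than the shift of the median.

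**Figure D3:**
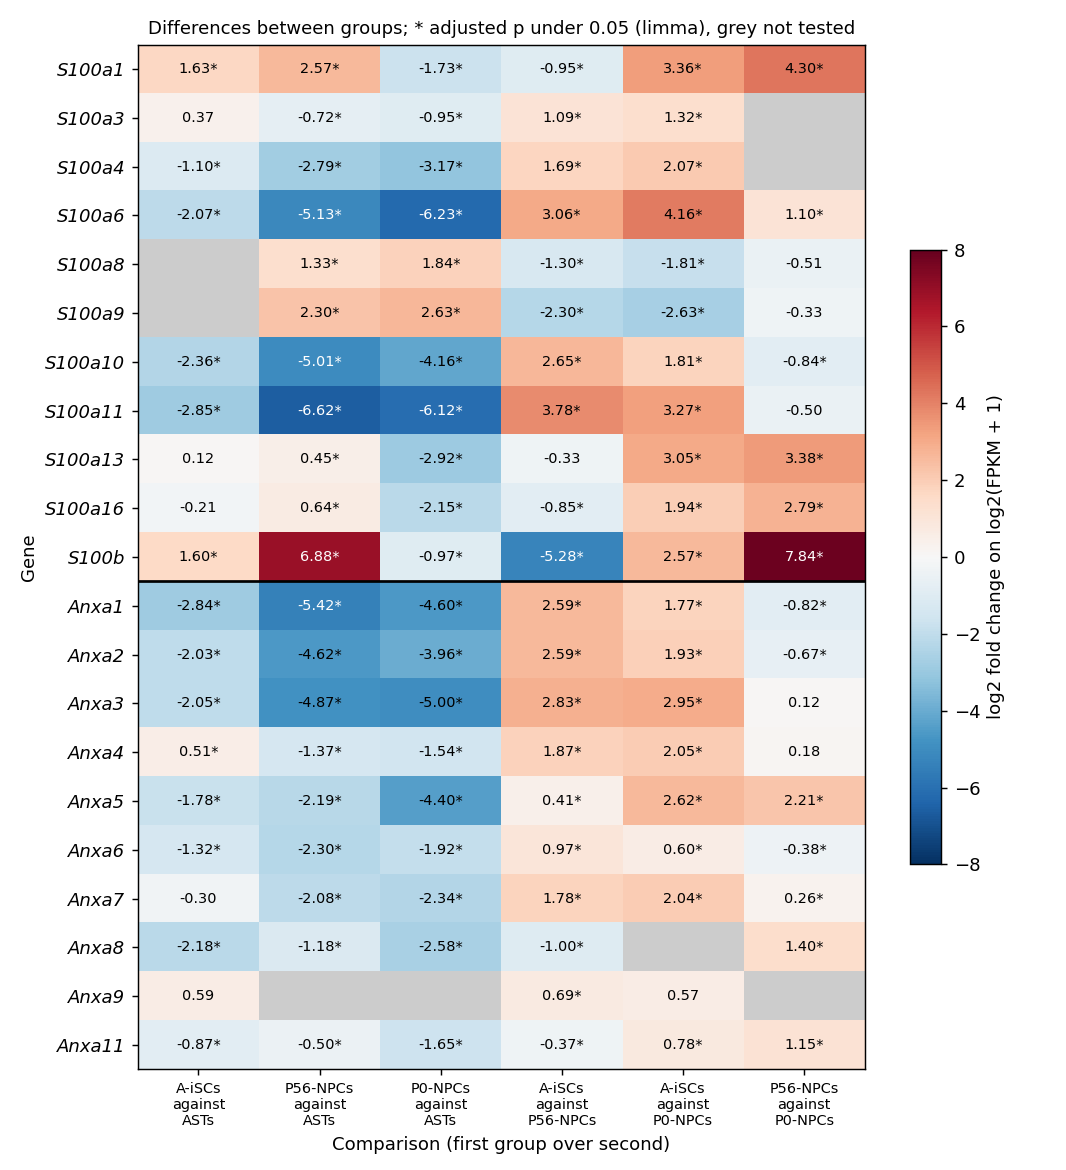
Log2 fold changes on log2(FPKM + 1) of the 21 members that entered any comparison (rows) in the 6 comparisons (columns), with the first-named group over the second. Colour runs from blue (lower) to red (higher), asterisks mark an adjusted p under 0.05 by limma and grey marks a member that did not enter. The widest values are those of S100b, up to 7.84 for P56-NPCs over P0-NPCs, and those of S100a11, down to -6.62 for P56-NPCs over ASTs. With scaling by total fragments the sign turned for S100a16 in the first column, for S100a13 and Anxa11 in A-iSCs over P56-NPCs, and for Anxa3, Anxa7 and Anxa4 in P56-NPCs over P0-NPCs.

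The S100a genes lie together on chromosome 3 while the annexins are spread over 8 chromosomes. In the deposited table, with positions on GRCm38, S100a1 (chr3:90511034-90514392, minus strand) and S100a13 (chr3:90514435-90524581, plus strand) begin the cluster head to head, 42 bases apart, and S100a9 (chr3:90692632-90695721, minus strand) ends it. S100a11 (chr3:93520488-93526287) and S100a10 (chr3:93555080-93564643), both on the plus strand, lie 2824766 bases further on and 28792 bases from each other. S100b is on chromosome 10 (chr10:76253853-76261159, plus strand) and Anxa2 on chromosome 9 (chr9:69453620-69491795, plus strand).

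Neighbours on chromosome 3 did not share a pattern throughout. S100a1 and S100a13, with the 42 bases shown above between them, were both highest in P56-NPCs and lowest in P0-NPCs, but A-iSCs were 3.10 times ASTs for S100a1 and 1.08 times for S100a13 in mean FPKM. The next expressed gene, S100a16, was also highest in P56-NPCs. S100a3 was highest in A-iSCs, S100a4 and S100a6 in ASTs, and S100a8 and S100a9 at the end of the cluster in P0-NPCs. S100a6 at 789.8 ± 249 FPKM in ASTs lay next to S100a5 at 0.197 ± 0.177. The separate pair S100a11 and S100a10 was highest in ASTs, followed for both by A-iSCs, then P0-NPCs, then P56-NPCs.

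**Figure D4:**
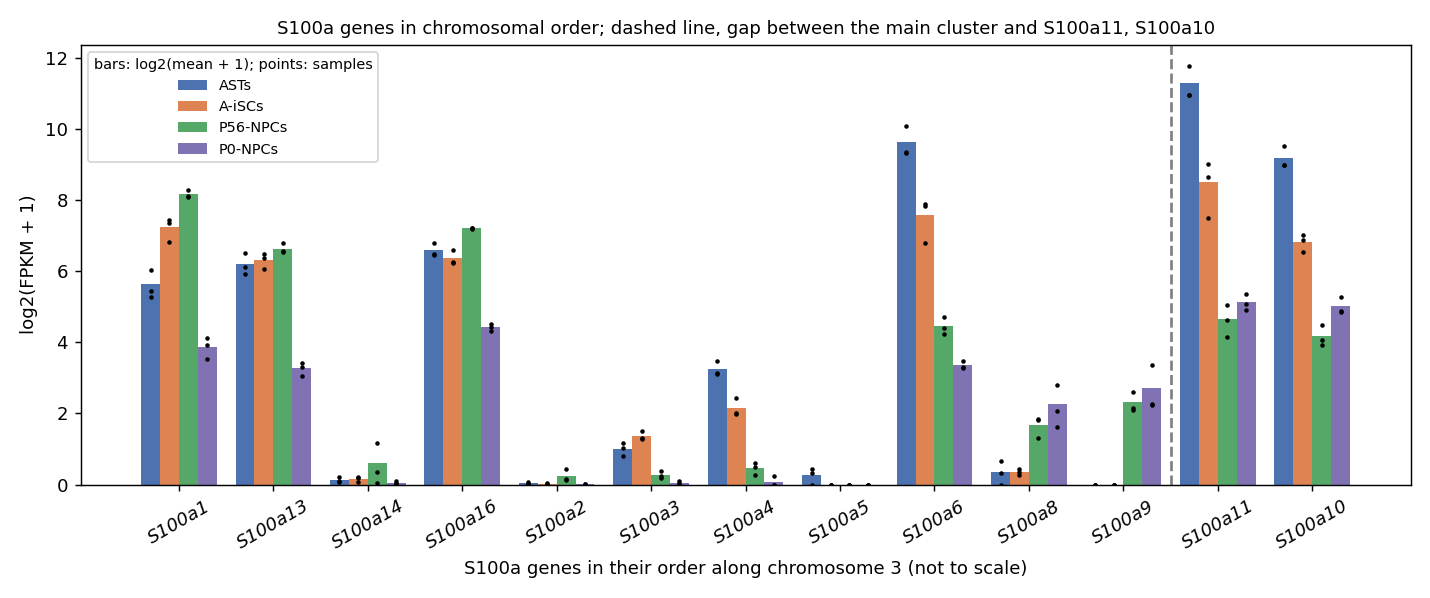
Expression of the 13 S100a genes on the y axis as log2(FPKM + 1), in their order along chromosome 3 on the x axis, which is not to scale. Bars are the log2 of the group mean plus 1 for the 4 groups, points are samples, and the dashed line marks the gap of 2824766 bases before S100a11 and S100a10. From left to right the tallest bar of the genes that entered a test passes from P56-NPCs (S100a1, S100a13, S100a16) to A-iSCs (S100a3), to ASTs (S100a4, S100a6), to P0-NPCs (S100a8, S100a9) and back to ASTs (S100a11, S100a10).

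Proteins that S100 proteins and annexins are known to bind were read from a list of 9 intracellular partners. Of these, 5 fell from ASTs to A-iSCs (Ahnak, Cacybp, Dysf, Myh9 and Sri), 1 rose (Hltf), Pdcd6 and Sugt1 were not called and Ahnak2 did not enter, beside 29.6% lower and 25.2% higher of all genes tested. Ahnak, the giant scaffold of the S100a10 and Anxa2 complex, averaged 36.1 ± 4.03 FPKM in ASTs, 10.53 ± 1.78 in A-iSCs, 1.27 ± 0.240 in P56-NPCs and 1.81 ± 0.0650 in P0-NPCs, and changed by -1.69 ± 0.15 (SE, limma adjusted p = 1.04e-04) on the log2 scale from ASTs to A-iSCs. Myh9, the myosin that S100a4 binds, averaged 78.5 ± 8.90, 20.1 ± 0.429, 5.45 ± 0.197 and 7.24 ± 0.369 in the same order, with a change of -1.91 ± 0.12 (SE, limma adjusted p = 2.30e-05). Dysf, the membrane repair protein dysferlin, and Cacybp changed by -0.87 ± 0.11 (SE, limma adjusted p = 4.35e-04) and -1.24 ± 0.18 (SE, limma adjusted p = 0.00102). Ahnak, Myh9 and Dysf shared the order ASTs, A-iSCs, P0-NPCs, P56-NPCs, whereas P0-NPCs came second for Cacybp (45.0 ± 5.24 FPKM) and P56-NPCs for Sri (31.0 ± 1.81 FPKM), the annexin-binding calcium sensor sorcin. Against ASTs, 8 of the 9 were lower in P0-NPCs, beside 40.9% of all genes tested, and 7 were lower and 1 higher (Hltf) in P56-NPCs, beside 39.8% and 39.1%.

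Receptors for released S100 proteins and for Anxa1 were scarce apart from Bsg (basigin, a receptor of S100a9). Bsg averaged 448 ± 28.6 FPKM in ASTs and 433 ± 75.05 in A-iSCs and did not pass between them (-0.06 ± 0.18 (SE, limma adjusted p = 0.790)), and it was lower in both NPC groups than in ASTs. Tlr4 (0.74 ± 0.17 (SE, limma adjusted p = 0.00851)), Fpr1 (0.93 ± 0.15 (SE, limma adjusted p = 0.00190)) and Ager (0.87 ± 0.31 (SE, limma adjusted p = 0.0473)) passed as higher in A-iSCs over ASTs, and Ager ranged from 0.383 to 2.48 FPKM over the A-iSC samples. Ager had its highest mean in P0-NPCs (2.20 ± 0.194 FPKM), with P0-NPCs over ASTs at 1.36 ± 0.10 (SE, limma adjusted p = 7.63e-06). Fpr2 averaged 0.869 ± 0.379 FPKM in A-iSCs, at most 0.0601 in the other groups, and entered no comparison. Fpr1 and Ager averaged under 1 FPKM in ASTs and entered A-iSCs over ASTs through A-iSCs alone. Ager likewise entered P0-NPCs over ASTs through P0-NPCs alone. The direction of these means was therefore fixed in advance. All 5 microglia markers were higher in A-iSCs over ASTs (beside 25.2% of all genes tested), as they were in P56-NPCs over ASTs (beside 39.1%), where Tlr4 averaged 0.878 ± 0.179 FPKM against 1.34 ± 0.265, entering through ASTs alone, and Fpr1 did not enter. The part of microglia in these values was not tested.

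The other calcium sensors and the S100 genes outside the rule did not all follow the members. Calm2 and Calm3 fell from ASTs to A-iSCs (-0.998 ± 0.13 (SE, limma adjusted p = 5.55e-04) and -0.83 ± 0.18 (SE, limma adjusted p = 0.00570)), and both were lower in A-iSCs than in either NPC group. S100a7a, a skin-type S100 gene, averaged 13.3 ± 0.521 FPKM in ASTs and under 1 in every other group, a change of -3.13 ± 0.15 (SE, limma adjusted p = 7.80e-06) from ASTs to A-iSCs. S100g, the calbindin of gut and kidney, averaged 1.79 ± 0.210 FPKM in A-iSCs and 0.113 ± 0.0108 in ASTs (1.32 ± 0.11 (SE, limma adjusted p = 7.49e-05)) and was at 0 in all P0-NPC samples. S100a7a entered that comparison through ASTs alone and S100g through A-iSCs alone, so the direction of the means of each was fixed in advance. S100pbp did not pass (0.23 ± 0.13 (SE, limma adjusted p = 0.157)) and S100z stayed under 1 FPKM in every sample and entered no comparison.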

How the data were processed

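RNA of 12 samples, 3 for each of the 4 groups, had been made into NEBNext Ultra libraries and read as paired ends on an Illumina HiSeq. The authors deposited 1 table of FPKM per gene and sample, together with gene lengths, biotypes and positions. The submitters' processing notes name Bowtie 0.12.2 and the build mm8, while 54985 of the 55240 gene identifiers shared with GENCODE M21 have the same position as on GRCm38. How fragments were counted, and whether strand was used, is not given in the sources used here. Each value times gene length was a whole number of fragments (100% of values, within 0.01), and the library size behind each column was 0.744 to 1.218 times the recovered fragments, which is a median-of-ratios scaling.

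Members were found by symbol and biotype, and all 25 are accounted for: those with a group mean of at least 10 FPKM by sample, the others by range. The members, gene lists, motifs and tests were chosen with earlier results of these data known. Groups were compared 2 at a time with limma 3.58.1 in R 4.3.3 (lmFit, eBayes with trend) on log2(FPKM + 1), over genes with a mean of at least 1 FPKM in at least 1 of the 2 groups, with Benjamini-Hochberg adjustment over all genes tested and calls at an adjusted p under 0.05. Such fold changes understate those of low genes. The S100a10 to Anxa2 ratio was compared with exact two-sided permutation tests. Alternatives were a pseudocount of 0.1, no filter, all 4 groups in 1 fit, the replicate number as a block, upper-quartile scaling (over genes with any fragment), scaling by total fragments, limma-voom on recovered fragments and leaving out each sample. Lists outside the members were receptors, intracellular partners, calmodulins, other S100 genes and markers of 10 cell types. The values of 1 gene of these lists are not reported here. Neuron and endothelial markers summed to 713 to 897 and 69.6 to 71.0 FPKM in P0-NPCs, and to at most 160.0 and 3.78 FPKM in any sample of the other groups. Promoter windows from RefSeq were matched by symbol. Python 3.11.15 with pandas 2.3.3 and matplotlib 3.10.9 was used for the other steps. All 12 columns of samples were used.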

Additional observations from a re-analysis of the deposited data

How the results depend on the processing

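Over all alternatives, 1469 of 1528 member values kept direction and side of the threshold, 31 lost a call, 19 gained one and 9 changed sign, 2 of these from a called value. Members higher in A-iSCs than in ASTs numbered 3 in the main test and 5 with all 4 groups in the fit and with scaling by total fragments, and 3 to 5 with 1 sample left out, the 5 without A-iSCs replicate 3. Scaling by total fragments also gave 4 in place of 7 members lower in A-iSCs than in P56-NPCs, and 9 in place of 4 lower in P56-NPCs than in P0-NPCs. Signs that turned with that scaling were S100a16 in A-iSCs over ASTs (0.0041), S100a13 (0.22) and Anxa11 (0.031) in A-iSCs over P56-NPCs, and Anxa3 (-0.39), Anxa7 (-0.27) and Anxa4 (-0.25) in P56-NPCs over P0-NPCs. S100a13 in A-iSCs over ASTs was -0.0053 with upper-quartile scaling and ran from -0.0084 (without ASTs replicate 3) to 0.29 with 1 sample left out, and S100a9 in P56-NPCs over P0-NPCs ran from -0.52 to 0.034 (without P0-NPCs replicate 3). The log2 ratio of S100a10 to Anxa2 in A-iSCs minus P56-NPCs ran from -0.036 to 0.087 with 1 sample left out. Counts with 1 sample left out (higher, lower) were 5 to 6 and 12 to 13 for P56-NPCs over ASTs, 2 and 17 to 18 for P0-NPCs over ASTs, 11 to 13 and 7 for A-iSCs over P56-NPCs, 17 to 18 and 2 for A-iSCs over P0-NPCs, and 9 and 3 to 5 for P56-NPCs over P0-NPCs. The cause of these changes was not tested.

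Whether equal replicate numbers pair the samples could not be settled with 3 samples per group. Correlations of residuals between same-numbered samples ran from -0.378 to 0.427 and exceeded 0.1 in 3 of 18 pairs, and in no pair of groups for all 3 numbers. For ASTs with A-iSCs they were -0.378, 0.335 and 0.427 for replicates 1, 2 and 3. With the replicate number as a block, 113 of 118 member values kept their call, S100a13 (P56-NPCs over ASTs) and Anxa5 and Anxa9 (A-iSCs over P56-NPCs) lost it, Anxa9 (A-iSCs over P0-NPCs) and S100a11 (P56-NPCs over P0-NPCs) gained it, and A-iSCs over ASTs again had 3 higher and 11 lower members. The size of the values of low members depended on the pseudocount. With a pseudocount of 0.1 a total of 22 called values grew by over 1.5 times in size, all of S100a3, S100a4, S100a8, S100a9, Anxa8, Anxa9 or Anxa11, and none lost its call. Limma-voom on recovered fragments moved 23 called values by over 1.5 times. Among these was S100b in P0-NPCs over ASTs, at -1.52 against -0.97 in the main test.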
